A study of Mus musculus with 10 samples.

Results

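The hepatic transporters of bile acids and organic anions were followed in livers of mice with diet-induced steatohepatitis. They were 10 genes of the 29657 in the expression table, found by symbol: the uptake carriers Slc10a1, Slco1a1, Slco1a4 and Slco1b2, the canalicular genes Abcb11, Abcb4, Abcc2 and Atp8b1, and the basolateral exporters Abcc3 and Abcc4. All 10 symbols were found, and all 10 genes passed the filter on low values. The livers came from C57BL/6 mice that had all received CDAHFD, a high-fat, amino acid-defined diet without choline, for 8 weeks. The control group, labelled WT, received AAV8-NC intravenously, and the other group received AAV8-TBG-galectin-3 intravenously and is labelled as a hepatocyte-specific knockdown of galectin-3 (n = 5 libraries each). TBG is the hepatocyte-active promoter of thyroxine-binding globulin, and an adeno-associated virus of serotype AAV8 delivers it mainly to hepatocytes. The age and sex of the mice, the time of injection and the insert of the vector were not known here. The labels number the libraries of a group without saying that each came from its own mouse, so p-values measure the spread between these libraries. Every value is an FPKM, the number of sequenced fragments scaled to transcript length and to the size of the library.

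Bile acids return from the gut in portal blood and are taken up across the sinusoidal membrane of the hepatocyte, mainly by the sodium-dependent carrier NTCP (Slc10a1) and by organic anion transporting polypeptides of the Slco family, which also carry bilirubin, hormones and drugs. They are pumped into the bile canaliculus by BSEP (Abcb11), while Abcb4 delivers phosphatidylcholine, Abcc2 delivers conjugated bilirubin and other organic anions, and the flippase Atp8b1 keeps the lipid order of the canalicular membrane. When bile flow is impaired, the basolateral pumps Abcc3 and Abcc4 return bile acids and conjugates to the blood, and uptake carriers are commonly reduced.

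The gene named in the label was not lower in whole-liver RNA. Lgals3, which encodes galectin-3, averaged 70.8 ± 22.9 FPKM in the control libraries and 74.2 ± 20.1 FPKM in the others (SD, n = 5 each). Its log2 difference was 0.08 (SE 0.25, limma with Benjamini-Hochberg adjustment, adjusted p = 0.856), with a 95% interval from 0.722-fold to 1.54-fold. Without control 5 it was -0.093. The label names hepatocytes, and whole liver does not show Lgals3 of hepatocytes apart from that of other cells. The second group is therefore called labelled knockdown, and every direction rests on the labels. Hepatocyte RNA was present in all libraries: Alb, which encodes albumin, ranged from 21960 to 30350 FPKM. Control 5 stood apart from the other libraries in its transporter levels. The mean absolute departure of the 10 transporters from their means over all libraries was 0.71 on the log2(FPKM + 1) scale in control 5 and 0.13 to 0.31 in the other 9 libraries. Over all 13471 tested genes the same measure was 0.22 in control 5, 0.22 in labelled knockdown 1 and 0.23 in labelled knockdown 5. Where control 5 moved a value by much, the value without it is given as well.

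To show the regulatory sequence next to these genes, promoter windows were taken from RefSeq (build GRCm38.p6), from 250 bases before to 50 bases after an annotated transcription start. Windows of 8 of the 10 genes were used, 10 windows in all. The windows shown are those of the uptake carriers Slco1a1 (chr6:141946913-141947212, minus strand) and Slco1b2 (chr6:141629268-141629567, plus strand) and of the canalicular pumps Abcb11 (chr2:69342567-69342866, minus strand) and Abcc2 (chr19:43782058-43782357, plus strand), which hold the AGGTCA hexamer that nuclear receptors bind, and that of the first start of Abcc4 (chr14:118706170-118706469, minus strand). Each runs 5′ to 3′ along the gene, and capitals mark every match, on either strand, to AGGTCA, to TGACNNNGC, the core of the antioxidant response element bound by NRF2, or to GTTAAT, part of the site of the hepatocyte factor HNF1.
Slco1a1: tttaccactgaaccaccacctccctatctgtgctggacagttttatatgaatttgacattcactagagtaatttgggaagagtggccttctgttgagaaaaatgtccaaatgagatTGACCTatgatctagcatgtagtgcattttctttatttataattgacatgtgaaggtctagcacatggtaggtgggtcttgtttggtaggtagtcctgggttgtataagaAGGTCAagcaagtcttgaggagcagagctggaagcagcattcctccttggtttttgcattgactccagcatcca
Slco1b2: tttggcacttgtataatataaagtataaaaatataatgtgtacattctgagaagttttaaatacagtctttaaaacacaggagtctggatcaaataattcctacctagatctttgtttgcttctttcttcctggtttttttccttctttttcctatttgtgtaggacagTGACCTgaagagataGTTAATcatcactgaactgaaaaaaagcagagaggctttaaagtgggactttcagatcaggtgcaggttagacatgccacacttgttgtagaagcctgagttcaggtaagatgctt
Abcb11: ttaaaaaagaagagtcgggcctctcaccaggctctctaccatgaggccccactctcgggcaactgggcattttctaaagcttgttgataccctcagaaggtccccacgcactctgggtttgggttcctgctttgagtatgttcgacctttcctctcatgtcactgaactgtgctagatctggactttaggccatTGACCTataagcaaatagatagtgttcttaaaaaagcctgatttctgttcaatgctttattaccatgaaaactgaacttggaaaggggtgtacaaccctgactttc
Abcc2: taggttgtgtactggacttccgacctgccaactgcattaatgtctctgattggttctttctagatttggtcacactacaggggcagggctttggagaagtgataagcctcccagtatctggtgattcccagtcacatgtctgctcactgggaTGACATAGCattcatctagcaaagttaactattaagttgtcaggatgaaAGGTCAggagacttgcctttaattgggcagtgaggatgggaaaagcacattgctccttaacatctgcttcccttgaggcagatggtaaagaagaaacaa
Abcc4: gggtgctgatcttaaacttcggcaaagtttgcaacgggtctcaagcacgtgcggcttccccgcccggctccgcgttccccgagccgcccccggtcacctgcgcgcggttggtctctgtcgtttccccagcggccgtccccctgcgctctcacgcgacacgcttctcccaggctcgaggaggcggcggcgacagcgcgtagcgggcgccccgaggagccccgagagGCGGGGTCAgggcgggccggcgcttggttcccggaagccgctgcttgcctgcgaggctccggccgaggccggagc
AGGTCA began 134 and 24 bases before the start of Slco1a1 (the first on the reverse strand), 81 before that of Slco1b2, 56 before that of Abcb11 (both reverse) and 49 before that of Abcc2. A further match lay 87 bases before the second start of Slc10a1. Of 32851 promoters of this length, 16.3% held AGGTCA. TGACNNNGC began 98 bases before the start of Abcc2 and 25 and 23 bases before the starts of Abcc4, and 12.4% of promoters held it. GTTAAT began 66 bases before the start of Slco1b2, and 7.10% of promoters held it. The bile acid receptor FXR binds, with its partner RXR, an inverted repeat of AGGTCA with 1 base between the copies. The exact repeat was found in 3 of the 32851 windows and in 0 of those of the transporters. The search allowed no mismatch, so imperfect repeats, such as aggccatTGACCT in the Abcb11 window, were not counted. It does not show that these windows lack a site for FXR. The windows of Slco1a4, Abcb4 and the first start of Slc10a1 held no match to these letters. A match describes the letters only.

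Because FPKM is scaled to transcript length, levels can be compared between transporters. In the control group the means ran in the order Slco1b2 (122 FPKM), Abcb11 (98.3), Abcc2 (60.4), Slc10a1 (53.5), Abcb4 (52.5), Abcc3 (24.0), Slco1a1 (12.4), Slco1a4 (9.85), Atp8b1 (5.33) and Abcc4 (2.48). The ranges of neighbours in that order were apart in the control libraries only between Abcb11 and Abcc2, between Abcb4 and Abcc3 and between Slco1a4 and Atp8b1. Without control 5, Slco1b2 (115.5 FPKM or more) also lay above Abcb11 (110.3 or less), and Atp8b1 (4.90 or more) above Abcc4 (1.80 or less). The medians without control 5 were 62.5 FPKM for Slc10a1, above the 56.0 of Abcc2, 17.4 for Slco1a1 and 1.42 for Abcc4. Slco1b2 exceeded Abcb11 in 7 of 10 libraries, Abcc2 exceeded Slc10a1 in 4 of 10, and Slco1a1 exceeded Slco1a4 in 4 of 10. Abcc3, the more abundant of the 2 basolateral exporters among these 10 genes, exceeded Slco1a1 in 10 of 10 libraries, although their ranges overlapped. Summed over the 4 uptake carriers, the level was 198 ± 49.1 FPKM in the control group and 195 ± 36.1 FPKM in the labelled knockdown group (SD, n = 5 each). Control 5 held 114.6 FPKM of it, and without that library the control level was 218 ± 18.6 FPKM (SD, n = 4). The summed level of the 4 canalicular genes was 217 ± 14.3 and 218 ± 21.8 FPKM, and that of the 2 basolateral exporters was 26.5 ± 4.47 and 19.9 ± 3.93 FPKM, with 24.6 ± 1.91 FPKM in the controls without control 5.

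**Figure D1:**
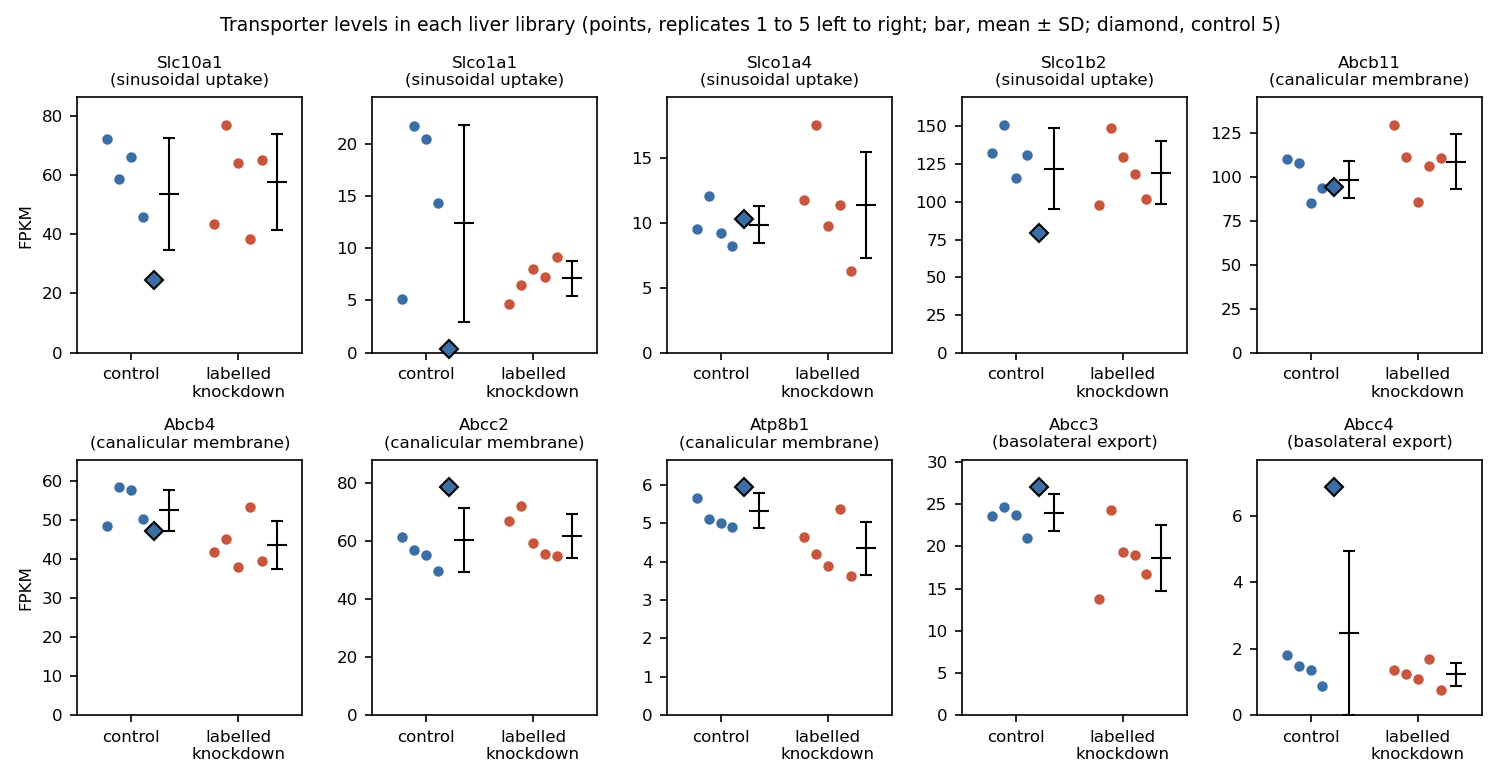
FPKM (vertical axes, each from 0) of the 10 transporters in the 5 control and 5 labelled knockdown libraries; points are libraries, bars the mean ± SD, and the diamond is control 5. The groups overlap in every panel, and control 5 is the lowest library for Slc10a1, Slco1a1 and Slco1b2 and the highest for Abcc2, Atp8b1, Abcc3 and Abcc4.

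The comparison of the groups asked whether transporter expression differed between livers labelled as hepatocyte galectin-3 knockdown and control livers. None of the 10 transporters passed the test: 0 were higher and 0 lower (limma on log2(FPKM + 1), Benjamini-Hochberg adjusted p under 0.05 over all tested genes). Of all 13471 tested genes, 16.8% passed in either direction, with 960 higher and 1300 lower. Scaling the libraries by the median of ratios turned that split to 1212 higher and 1020 lower and left 0 transporters called. Before adjustment, Abcb4, Atp8b1 and Abcc3 had p under 0.05, all lower, which is 3 of 10 beside 33.5% of all tested genes. For 10 of 10 transporters the ranges of the groups overlapped. Over all tested genes the share without overlap was 13.1%, too small for 10 genes to show a contrast. The median log2 difference was -0.10 for the transporters and -0.04 for all tested genes. In whole liver, fewer cells of a type and less RNA per cell cannot be told apart.

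Among the uptake carriers no difference between the groups passed the test, and control 5 was the lowest library for 3 of the 4. Slc10a1 (ENSMUSG00000021135), the sodium-dependent bile acid carrier, stood at 72.2, 58.7, 66.2, 45.9 and 24.6 FPKM in control libraries 1 to 5. In labelled knockdown libraries 1 to 5 it stood at 43.6, 76.9, 64.0, 38.4 and 65.0 FPKM. Apart from the low control 5, both groups covered much the same range. Slc10a1 gave a log2 difference of 0.15 (SE 0.28, limma adjusted p = 0.747), with a 95% interval from 0.723-fold to 1.69-fold. Without control 5 it was -0.10 (adjusted p = 0.753), so its sign rests on that library.

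Slco1a1 (ENSMUSG00000041698), an organic anion carrier strongly expressed in male mouse hepatocytes, had the widest interval of the 10 transporters. Control libraries 1 to 5 held 5.10, 21.7, 20.4, 14.4 and 0.313 FPKM. The levels in labelled knockdown libraries 1 to 5 were 4.62, 6.48, 8.04, 7.28 and 9.16 FPKM. The labelled knockdown libraries lay close together, below 3 of the control libraries and above the lowest, and 5 of 5 lay under the control mean of 12.4 FPKM. The level in control 5 was 55.6-fold lower than the median of the other 4 controls (17.4 FPKM). With all libraries the log2 difference was -0.18 (SE 0.66, limma adjusted p = 0.869), and the 95% interval ran from 0.325-fold to 2.39-fold. Without control 5 the log2 difference was -0.88 (unadjusted p = 0.0269, limma adjusted p = 0.0990), with an interval from 0.323-fold to 0.920-fold. With a pseudocount of 0.1 and all libraries it was 0.062.

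Slco1b2 (ENSMUSG00000030236) encodes the OATP1B carrier of bilirubin, bile acids and drugs and was the most abundant of the 10 transcripts. It stood at 132, 151.0, 116, 131 and 79.5 FPKM in controls 1 to 5 and at 97.5, 149, 130, 118 and 102 FPKM in labelled knockdown libraries 1 to 5. Control 5 was again the lowest, and the remaining libraries of both groups overlapped. The log2 difference was -0.02 (SE 0.17, limma adjusted p = 0.954), with an interval from 0.763-fold to 1.28-fold. It was -0.16 without control 5 (adjusted p = 0.408).

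Slco1a4 (ENSMUSG00000030237), the OATP that carries bile salts and cardiac glycosides, was at neither extreme in control 5. Controls 1 to 5 held 9.48, 12.04, 9.21, 8.23 and 10.3 FPKM, and the level was 11.7, 17.5, 9.78, 11.4 and 6.28 FPKM in labelled knockdown libraries 1 to 5. The highest and the lowest of the 10 libraries were both in the labelled knockdown group, numbers 2 and 5. The resulting log2 difference was 0.13 (SE 0.20, limma adjusted p = 0.681), with an interval from 0.808-fold to 1.49-fold, and 0.31 without labelled knockdown 5 (adjusted p = 0.208). Without labelled knockdown 2 it was -0.031 (adjusted p = 0.916), so its sign rests on that library. The near copies Slco1a5 and Slco1a6 were at most 0.0494 FPKM in any library. Of the 50-base words of the longest transcript, 2.26% of those of Slco1a1 and 2.73% of those of Slco1a4 occurred in another gene, each other or Slco1a5, so a small share of their reads could be assigned to either.

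On the canalicular side, the bile salt pump and the phospholipid and membrane-order genes had mean differences of opposite sign, none of which passed the test. Abcb11 (ENSMUSG00000027048), the bile salt export pump, stood at 110.3, 108, 85.0, 93.9 and 94.4 FPKM in controls 1 to 5. The labelled knockdown libraries held 129.6, 111.0, 85.8, 106 and 110.5 FPKM. The groups overlapped, and the lowest values of the groups, 85.0 and 85.8 FPKM, were nearly equal. The log2 difference was 0.14 (SE 0.11, limma adjusted p = 0.426), with an interval from 0.925-fold to 1.31-fold, and it was 0.024 with array weights.

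Abcb4 (ENSMUSG00000042476), the phosphatidylcholine translocator whose loss leaves bile acids in bile without protective phospholipid, stood at 48.5, 58.5, 57.8, 50.4 and 47.3 FPKM in controls 1 to 5. It stood at 41.8, 45.2, 37.9, 53.5 and 39.5 FPKM in labelled knockdown libraries 1 to 5. Labelled knockdown 4 lay among the controls, and the other 4 lay below every control. The log2 difference was -0.27 (SE 0.10, unadjusted p = 0.0256, limma adjusted p = 0.0975), with an interval from 0.708-fold to 0.973-fold. The unadjusted limma p of Abcb4 was 0.0660 without control 2 and 0.0641 without control 3. It was 0.0693 without labelled knockdown 3 and 0.0592 without labelled knockdown 5. Of the 50-base words of its longest transcript, 3.42% also occurred in Abcb1a or Abcb1b.

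Atp8b1 (ENSMUSG00000039529), the canalicular flippase, showed the same library pattern at a lower level. Controls 1 to 5 held 5.68, 5.11, 5.02, 4.90 and 5.95 FPKM, and the level was 4.65, 4.22, 3.90, 5.38 and 3.63 FPKM in labelled knockdown libraries 1 to 5. Labelled knockdown 4 again lay among the controls, with the other 4 below them. For Atp8b1 the log2 difference was -0.25 (SE 0.10, unadjusted p = 0.0232, limma adjusted p = 0.0921), with an interval from 0.729-fold to 0.972-fold. Without control 5 the unadjusted limma p of Atp8b1 was 0.0544, and without control 1 it was 0.0525. Without labelled knockdown 3 or 5 it was 0.0584. Without labelled knockdown 4, Abcb4 (-0.34, adjusted p = 0.0286) and Atp8b1 (-0.31, adjusted p = 0.0287) both passed as lower, where 13% of all tested genes did. Array weights, which let limma give less weight to libraries that fit its model poorly, also called both as lower, with adjusted p of 0.0233 for Abcb4 and 0.0373 for Atp8b1, beside 15.2% of tested genes.

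Abcc2 (ENSMUSG00000025194), the canalicular pump for conjugated bilirubin, was at 61.4, 56.9, 55.1, 49.9 and 78.7 FPKM in controls 1 to 5. It was at 67.0, 72.1, 59.4, 55.7 and 54.7 FPKM in the labelled knockdown libraries. Control 5 was the highest of the 10 libraries, and the groups overlapped. Abcc2 gave a log2 difference of 0.04 (SE 0.12, limma adjusted p = 0.841), with an interval from 0.853-fold to 1.24-fold. It was 0.14 without control 5 (adjusted p = 0.349), -0.022 without control 4 and -0.015 without labelled knockdown 2.

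The basolateral exporters had lower means in the labelled knockdown group, without passing the test. Abcc3 (ENSMUSG00000020865), which moves glucuronides and bile acids into blood, stood at 23.7, 24.7, 23.7, 21.0 and 27.0 FPKM in controls 1 to 5 and at 13.8, 24.4, 19.3, 18.9 and 16.7 FPKM in the labelled knockdown libraries. Only labelled knockdown 2 reached the control range. The log2 difference was -0.37 (SE 0.13, unadjusted p = 0.0146, limma adjusted p = 0.0694), with an interval from 0.638-fold to 0.941-fold. Without labelled knockdown 2 it was -0.47 and passed (adjusted p = 0.0291), where 6.22% of tested genes passed as lower. With all libraries, the unadjusted limma p of Abcc3 was the smallest of the 10 transporters. The tested genes outside the lists whose levels over the 10 libraries were most like those of Abcc3 were Iars2, Gpcpd1, Fam174a and Pus10, with mean absolute differences of 0.266, 0.269, 0.271 and 0.273 SD between standardised log2 values.

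Abcc4 (ENSMUSG00000032849), which exports bile acids and cyclic nucleotides and is scarce in healthy hepatocytes, stood at 1.80, 1.47, 1.37, 0.889 and 6.87 FPKM in controls 1 to 5. The labelled knockdown libraries held 1.35, 1.25, 1.08, 1.69 and 0.765 FPKM. Control 5 was the only library above 1.80 FPKM, 4.85-fold over the median of the other controls, and the remaining 9 libraries overlapped. Its log2 difference was -0.44 (SE 0.32, limma adjusted p = 0.350) with an interval from 0.455-fold to 1.19-fold, and -0.10 without control 5 (adjusted p = 0.661). Cholangiocytes also express Abcc3 and Abcc4. The 9 cholangiocyte markers summed to 133 to 376 FPKM in the controls and 49.2 to 308 FPKM in the labelled knockdown libraries, and 0 of the 6 tested passed. Their part in the exporter levels was not tested.

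**Figure D2:**
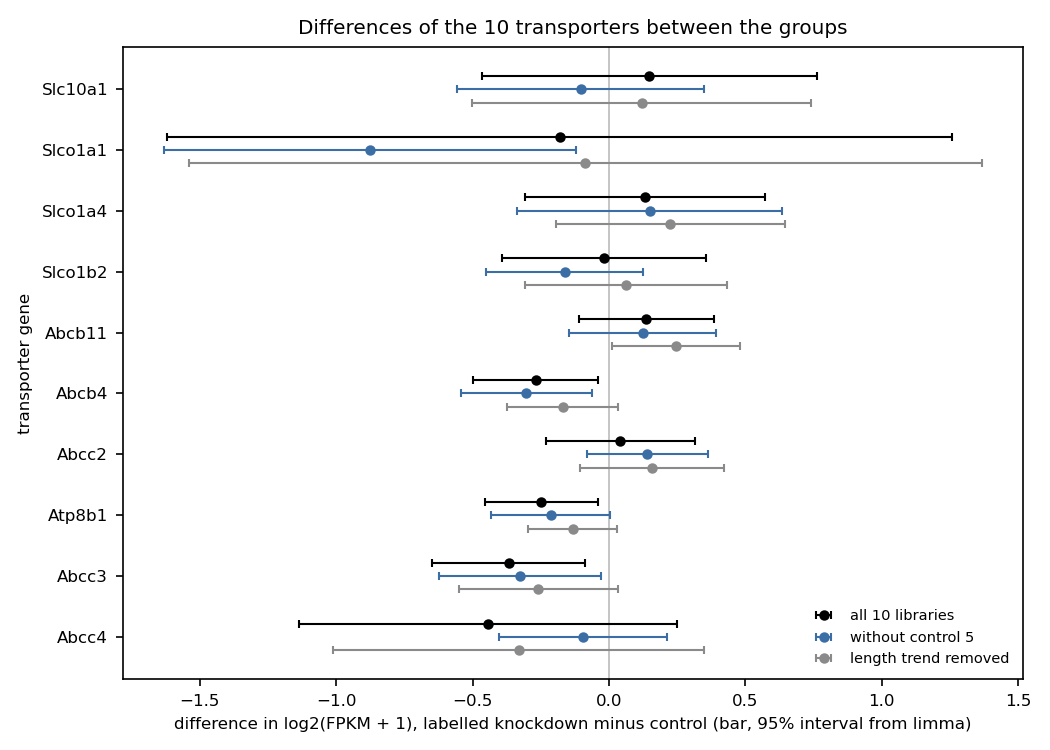
Log2 differences of FPKM + 1 (labelled knockdown minus control, horizontal axis) for the 10 transporters, with 95% intervals from limma, for all 10 libraries, without control 5, and with the length trend removed. With all 10 libraries the intervals of Abcb4, Atp8b1 and Abcc3 lie below 0 and the other 7 cross it; the point for Slco1a1 moves from -0.18 to -0.88 without control 5.

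Length of transcript moved with the groups in this table. The slope of the log2 departure of a gene against each doubling of transcript length was 0.0189 to 0.0463 in the controls and -0.0586 to -0.007 in the labelled knockdown libraries, with no overlap. The transporters with unadjusted p under 0.05 had longest transcripts of 4079 bases (Abcb4), 5005 bases (Abcc3) and 6719 bases (Atp8b1). Those of Abcb11 (5025 bases), Abcc4 (5715 bases) and Abcc2 (8027 bases), which did not reach that p, were also long. The uptake carriers were shorter, at 1749 to 3904 bases. With the length trend removed from every library, the log2 difference was -0.17 for Abcb4 (limma adjusted p = 0.236), -0.13 for Atp8b1 (0.247), -0.26 for Abcc3 (0.208) and 0.25 for Abcb11 (0.150). The unadjusted limma p was then 0.0925 for Abcb4, 0.101 for Atp8b1 and 0.0756 for Abcc3, all above 0.05. For Abcb11 it was 0.0430. Whether RNA quality or library preparation contributed to these differences was not tested. In the authors' deposited table, 0 of the 10 transporters were marked significant, with q-values from 0.123 for Atp8b1 to 0.983 for Slco1b2.

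Ratios within a library do not depend on its scaling, and 2 of them, chosen after the values had been seen, are given as descriptions. Bile salts and phosphatidylcholine are secreted by separate pumps, and the ratio of Abcb11 to Abcb4 was 2.27, 1.85, 1.47, 1.86 and 1.99 in controls 1 to 5. In labelled knockdown libraries 1 to 5 it was 3.10, 2.46, 2.26, 1.98 and 2.80. The groups overlapped, with labelled knockdown libraries 1, 2 and 5 above every control. The ratio of the basolateral Abcc3 to the canalicular Abcc2, which share many conjugated substrates, was 0.344 to 0.435 in the controls and 0.206 to 0.340 in the labelled knockdown libraries. Of the 45 pairs among the 10 transporters, this was the only 1 whose ratio did not overlap between the groups. Among single tested genes, 13.1% did not overlap. The share over pairs of all tested genes was not computed, so this ratio is not shown to be unusual.

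Among the 10 transporters, control 5 was low for most uptake carriers and high for several exporters. It was the lowest of 10 libraries for 3 of the 4 uptake carriers, and the highest for Abcc2 and Atp8b1 of the 4 canalicular genes and for both basolateral exporters. Among all tested genes it was the lowest for 14.1% and the highest for 16.7%. Of the 19 tested other transporters and their partners, it was the lowest for 5 and the highest for 3. Among those 5 were the carrier Slco2b1 and the exporter Abcc6, and among those 3 the exporter Abcg2 and Slco2a1 of the Slco family. Against the median of the other controls, Slc10a1 was 2.54-fold lower and Slco1b2 was 1.66-fold lower, and Abcc2 was 1.40-fold higher and Abcc3 was 1.14-fold higher. Several genes of bile acid synthesis were also low there: control 5 was the lowest library for 7 of 17 and the highest for 1, Acox2. Among those 7 were Cyp27a1 and Cyp7b1 of the acidic pathway and Baat, which conjugates bile acids to taurine. Of 15 tested regulators it was the lowest for 4 and the highest for 0. Of 14 genes of the canalicular membrane and trafficking it was the lowest for 3 and the highest for 4. Markers of liver zones also departed in control 5. Of the 9 pericentral markers, 8 were lowest in control 5, with a sum of 1870 FPKM against 3484 to 4329 FPKM in the other controls and 3361 to 5443 FPKM in the labelled knockdown libraries. Glul, which encodes the glutamine synthetase of pericentral hepatocytes, was at 94.5 FPKM there and at 266 to 371 FPKM in the other controls, and Cyp1a2 was at 52.5 against 212 to 265 FPKM. Of the 8 periportal markers, 6 were highest in control 5, among them Hal, which encodes histidine ammonia-lyase, at 85.3 FPKM against 20.7 to 35.0 FPKM. Cyp2f2 of the same list was lowest there (168.7 FPKM), and the periportal sum of 2324 FPKM lay within the 1738 to 2515 FPKM of the other controls. Their part in the transporter levels of control 5 was not tested.

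**Figure D3:**
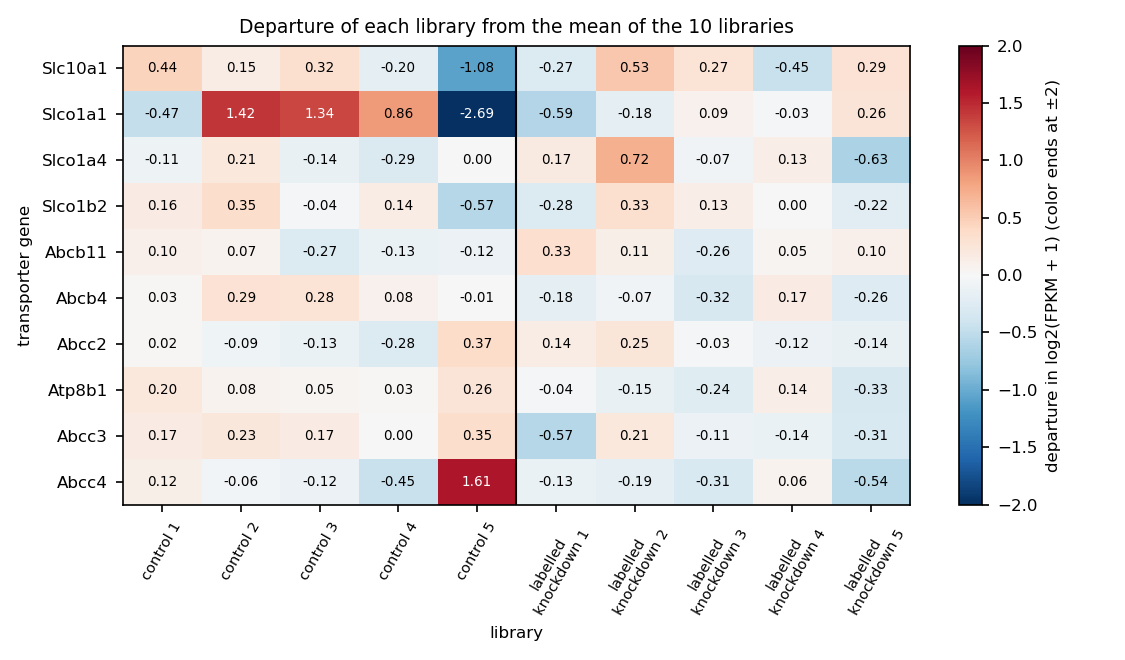
Departure of each transporter (rows) in each library (columns) from its mean over the 10 libraries, in log2(FPKM + 1); the colour scale ends at 2 in either direction and each cell prints its value. The column of control 5 holds the strongest colours, with -2.69 for Slco1a1 and 1.61 for Abcc4, and no departure in another column exceeds 1.42 in size.

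Other genes of bile acid transport, synthesis and control were read from 4 lists of 70 genes, 65 of which were tested. Of these 65, 2 passed as higher and 11 as lower, beside 7.13% and 9.65% of all tested genes. Without control 5, 2 were higher and 10 lower. Of the 19 tested other transporters and their partners, 2 fell. Slc10a5, a relative of Slc10a1 in the same carrier family, fell from 4.45 ± 0.876 to 2.31 ± 0.176 FPKM (log2 difference -0.71, SE 0.11, limma adjusted p = 0.00684), with no overlap, and it stayed below the threshold in 10 of 10 fits without 1 library. Tmem30a, the subunit that Atp8b1 needs to leave the endoplasmic reticulum, fell from 28.7 ± 0.830 to 24.5 ± 1.68 FPKM (log2 difference -0.22, adjusted p = 0.0431). The call of Tmem30a held in only 1 of 10 fits without 1 library and was lost with the length trend removed (adjusted p = 0.178). Of 17 genes of bile acid synthesis and conjugation, only Cyp39a1, an oxysterol 7-alpha-hydroxylase, fell (24.1 ± 1.98 to 18.2 ± 3.76 FPKM, log2 difference -0.40, adjusted p = 0.0448), again in only 1 of 10 such fits and not with the length trend removed (0.103). Cyp7a1, the rate-limiting enzyme of bile acid synthesis, was at 15.4 ± 5.99 and 9.81 ± 3.38 FPKM and did not pass.

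Regulators of these transporters moved in both directions. Of 15 tested, 2 rose and 5 fell. Nr1h4, which encodes FXR, the bile acid receptor that activates Abcb11, rose from 34.3 ± 3.46 to 44.5 ± 4.21 FPKM (log2 difference 0.37, SE 0.09, limma adjusted p = 0.0248), a call kept in 6 of 10 fits without 1 library. Nr1i3, which encodes the xenobiotic receptor CAR, a regulator of Abcc2 and Abcc3, rose from 21.7 ± 7.92 to 51.6 ± 19.4 FPKM (1.22, adjusted p = 0.0208). Hnf4a, a hepatocyte factor that drives Slc10a1 and many other liver genes, fell from 86.5 ± 6.77 to 64.3 ± 2.37 FPKM (-0.42, adjusted p = 0.00944). Rxra, the shared partner of FXR and CAR, fell from 43.9 ± 5.61 to 29.8 ± 5.29 FPKM (-0.55, adjusted p = 0.0200, and 0.0674 with the length trend removed). Ppara, the fatty acid receptor, fell by 0.75 (adjusted p = 0.0224) and Nr3c1, the glucocorticoid receptor, fell by 0.34 (adjusted p = 0.0283), both on the log2 scale. The call of Nr3c1 held in 4 of 10 fits without 1 library and was lost with the length trend removed (adjusted p = 0.0937). The other called regulator, outside the rule that named these 6, was Klb, the co-receptor of FGF15 and FGF21 (-0.43, adjusted p = 0.0489). Nr0b2, which encodes SHP, a target of FXR that represses Cyp7a1, was at 38.4 and 50.6 FPKM and did not pass.

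Genes that build the canalicular membrane or bring pumps to it were 14, of which 0 rose and 3 fell. Rdx, which encodes radixin, the protein that ties Abcc2 in the canalicular membrane to actin, fell from 39.2 ± 2.94 to 28.2 ± 2.94 FPKM (log2 difference -0.47, limma adjusted p = 0.0103), with the call kept in 10 of 10 fits without 1 library. Myo5b, the motor that carries canalicular proteins on recycling endosomes, fell by 0.28 on the log2 scale (adjusted p = 0.0231, and 0.117 with the length trend removed). With the length trend removed, 2 genes of the 4 lists were higher and 5 lower.

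**Figure D4:**
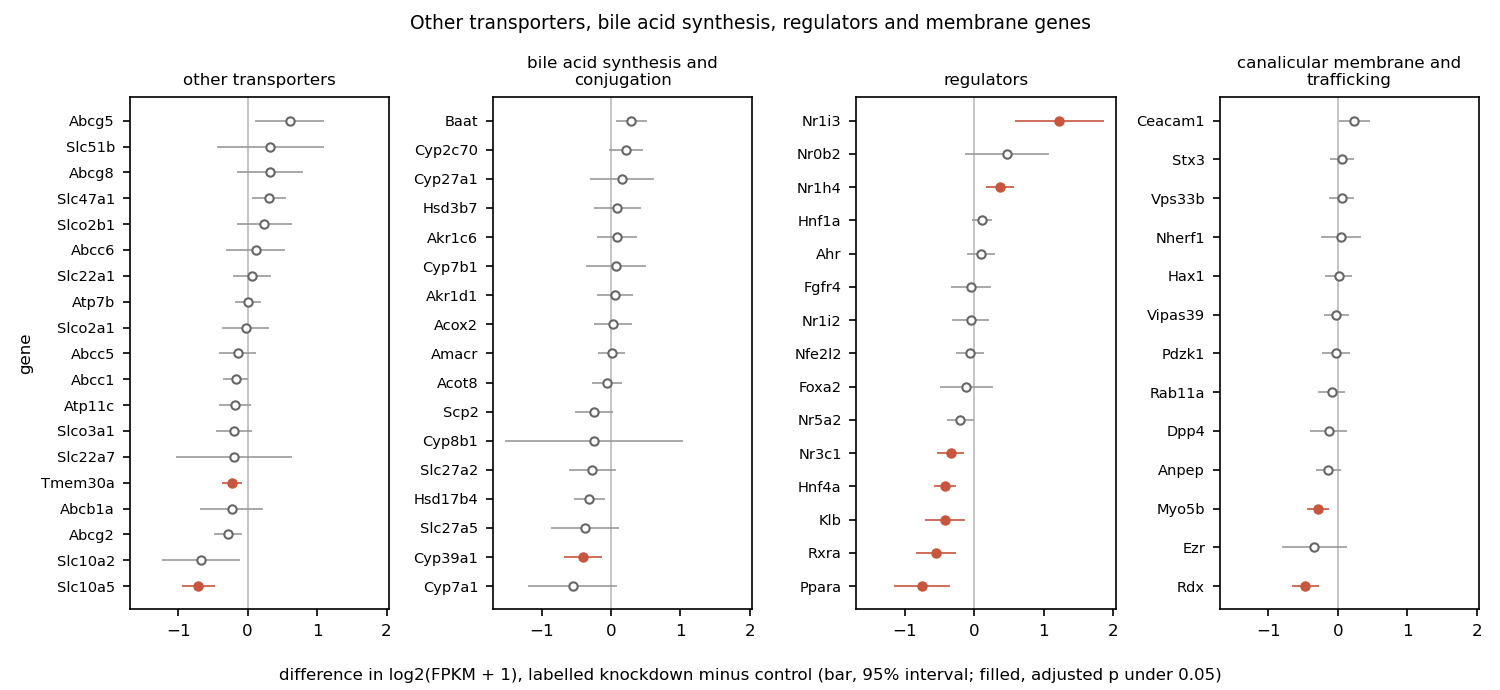
Log2 differences of FPKM + 1 (labelled knockdown minus control, horizontal axes) with 95% intervals from limma for tested genes of the 4 lists, a panel for each list; filled points passed the test. Of the filled points, 2 lie above 0, Nr1i3 and Nr1h4, and the others below 0, led by Ppara and Slc10a5.

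Markers of liver cell types were read over 9 lists to show what else differed in these samples. Of 59 tested markers, 2 were higher and 8 lower, beside 7.13% and 9.65% of all tested genes. Hepatocyte markers summed to 50190 to 58360 FPKM in the controls and 47930 to 59460 FPKM in the labelled knockdown libraries, with Apoa2 and Ttr higher and Cps1 lower. Lower markers of other cells were Adgre1 and Cd5l of Kupffer cells, Reln and Col1a1 of stellate cells and fibroblasts, Pecam1 of endothelium, and Sds and Ass1 of periportal hepatocytes. The calls held in only 1 of 10 fits without 1 library for Sds, 2 of 10 for Pecam1 and Col1a1 and 4 of 10 for Ttr, and Pecam1 (adjusted p = 0.121), Col1a1 (0.0731) and Ttr (0.0732) lost theirs with the length trend removed. Their part in the transporter differences was not tested.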

How the data were processed

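Liver poly(A) RNA of 10 libraries was sequenced with a strand-marking dUTP protocol, per the labels' protocols. Tools named per the submitters' processing notes are StringTie 1.3.4d, HISAT2 2.0.4 and cutadapt 1.9; those notes name the human build GRCh38 while the deposited identifiers are mouse, so no coordinates of the authors' annotation are printed. The authors deposited FPKM per library, per the file headers. Further deposited columns were their fold ratio of group means, the log2 of that ratio, a p-value and a q-value. Neither the authors' test nor the strand setting of their quantification is named in the sources used here. All columns of sample values were used (0 left out), and 0 pairs of libraries were identical.

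The tested genes were the 13471 that reached 0.5 FPKM in 5 or more libraries. Sample titles gave the group and replicate number. Values were taken as log2(FPKM + 1), which understates changes of low genes, and compared with limma 3.58.1 in R 4.3.3 (two-sided p, trended prior variance, no covariates, Benjamini-Hochberg over all tested genes, called at 0.05); the fit was tested on simulated data. Only 13.0 to 14.7% of low FPKM values were whole multiples (tolerance 0.02) of the commonest step. Whole reads could therefore not be recovered, the depth is unknown, no counting interval is given, and precision is the spread between libraries. Each gene's length was taken from its longest GENCODE M21 transcript, available for 97.9% of tested genes, and their trend was removed per library with a natural spline of 4 degrees of freedom.

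The transporters and the gene lists were chosen with earlier results of these data known. The genes named were all 10 transporters, up to 6 called genes of each of the 4 related lists by smallest p, the called cell markers, Lgals3, and the 4 tested genes whose pattern was most like that of the transporter with the smallest p; some genes that this rule takes are not reported here. Alternatives were a pseudocount of 0.1, no filter, a minimum of 1 FPKM, scaling by the median of ratios, quantile normalization, removal of the length trend, array weights, a replicate block and leaving out each library in turn. Replicate numbers were not treated as pairs. The batch label is the same for every library, so batches could not be compared. RefSeq promoters of 8 transporters were searched for 4 motifs on both strands. The selection of windows left out a chromosome by name, and no window of Abcc3 or Atp8b1 was used. Their absence does not show that RefSeq lacks a promoter for them.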

Additional observations from a re-analysis of the deposited data

Results flagged for a closer look

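In 66 groups of 5 values, 4 held a library far from the others, where chance gives about 1 in 20 groups; for the transporters it was 1 of 20 groups. Abcc4 stood at 6.87 FPKM in control 5, while the other controls held 0.889 to 1.80 FPKM. Cps1, a periportal urea cycle gene, was also far from the others in control 5, at 520.2 FPKM against 355 to 385 FPKM. Labelled knockdown 4 was apart for Nr1h4, at 37.2 FPKM against 45.0 to 47.5 FPKM, and for Adgre1, a Kupffer cell marker, at 4.73 FPKM against 2.33 to 2.72 FPKM. In both genes that library lay on the side of the control group, as it did for Abcb4 and Atp8b1.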

How the results depend on the processing

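The number of transporters called was 0 in either direction under 7 of the 8 other settings; array weights called 2 as lower (Abcb4 at -0.35 and Atp8b1 at -0.26). Leaving out 1 library gave 0 higher and 0 to 2 lower, the calls coming without labelled knockdown 2 or 4. The log2 difference of Slco1a1 was 0.062 with a pseudocount of 0.1; that of Slco1b2 was 0.028 with median-of-ratios scaling and 0.063 with the length trend removed. Leaving out each library gave ranges of -0.10 to 0.28 for Slc10a1, -0.88 to 0.15 for Slco1a1, -0.031 to 0.31 for Slco1a4, -0.16 to 0.067 for Slco1b2, 0.071 to 0.22 for Abcb11, -0.34 to -0.22 for Abcb4, -0.022 to 0.14 for Abcc2, -0.31 to -0.20 for Atp8b1, -0.47 to -0.27 for Abcc3, -0.61 to -0.096 for Abcc4 and -0.093 to 0.26 for Lgals3. Of the 4 related lists, 2 genes were higher and 11 lower; without a filter these were 1 and 5, array weights gave 6 higher, removal of the length trend gave 5 lower, and leaving out 1 library gave 1 to 3 higher and 5 to 10 lower. The cause was not tested. Named genes of these and the marker lists kept their direction in every fit, but lost the call in 35 of 175 fits under other settings (Pecam1 was not tested at a minimum of 1 FPKM) and in 70 of 220 without 1 library. With a replicate block, Abcc3 (adjusted p = 0.0799), Abcb4 (0.119) and Atp8b1 (0.141) stayed uncalled, and calls over all genes went from 960 higher and 1300 lower to 769 and 986; the replicate numbers share only a number, since same-numbered libraries deviated with correlations of -0.0145 to 0.114, and only 1 of 5 controls correlated best with its own number. FPKM without recovered reads limits statements on the lowest genes, Abcc4 and Slco1a1 in control 5.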
